A study of Mus musculus with 23 samples.

Results

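The comparison described here was the difference between the effects of deleting Cebpa in MLL-AF9 leukaemia and in normal marrow progenitors. It is the knockout effect in leukaemic granulocyte-macrophage progenitors (KO L-GMPs minus control L-GMPs) minus the knockout effect in common myeloid progenitors (KO CMPs minus control CMPs). The groups were taken from the sample labels and covered 15 of the 23 mouse arrays of the series. KO L-GMPs were on 3 arrays, control L-GMPs on 4, KO CMPs on 4 and control CMPs on 4.

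KO donors were Mx.1-Cre+ C/EBPa f/f mice and controls Mx.1-Cre- C/EBPa f/f mice, and both were given 3 injections of poly I:C, which switches on the interferon-inducible Mx1 promoter that drives Cre. CMPs were sorted 5 days after those injections as Lin- c-kit+ Sca1- CD34+ FcRII/III- marrow cells. L-GMPs came from lethally irradiated congenic recipients of KO or control KSLs (Lin- Sca-1+ c-kit+ stem cell enriched marrow) infected with the MSCV-MLL-AF9-IRES-GFP retrovirus, which carries the fusion oncogene. The KO-MF9 recipients had in addition been injected with vectors expressing IL-3 and GM-CSF, 2 to 4 months after transplantation. No such injection is given for the control recipients, so genotype and cytokine exposure in the leukaemias cannot be told apart. By the source labels, which give the secondary recipients' graft the identifier of the primary mouse, the KO L-GMP arrays were 1 primary recipient and 2 secondary recipients of that same leukaemia, and the control L-GMP arrays were 2 primary and 2 secondary recipients. For the other groups the labels do not say which arrays share a donor, so array-to-array spread may in part be technical. Each p-value rests on 1 residual spread per gene, pooled over all 9 groups of the series, including groups outside this comparison. The primary KO L-GMP array is alone in its group and adds nothing to that spread. From the knockout leukaemia only the 2 secondary arrays enter it, so no p-value measures the spread between knockout leukaemias. Age was not given.

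C/EBPα, the protein made from Cebpa, is a basic leucine zipper transcription factor that is needed for normal progenitors to become granulocyte-macrophage progenitors. It switches on genes for primary granule proteases, myeloid cytokine receptors and later C/EBP factors, and in its absence marrow progenitors are blocked before the granulocyte and monocyte lineages. MLL-AF9 is a fusion of a histone methyltransferase with a transcription elongation factor, and L-GMPs are the progenitor-like cells that carry the leukaemia it causes.

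All values below are log2 expression values on the deposited scale, on which 1 unit is a doubling and the lowest value listed is 3. A difference is a log2 difference between effects, given with its standard error (SE) from the limma fit, and "called" means a Benjamini-Hochberg adjusted p below 0.05 over 19937 genes. L-GMP values are listed with primary recipients before secondary ones. The L-GMP effect weights primary and secondary recipients equally, so it is not the plain difference of the array means. In bulk samples fewer cells of a type and less RNA per cell cannot be told apart.

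Several properties of the arrays move with the groups. High Xist was read on 3 of 3 arrays of KO L-GMPs against 1 of 4 of control L-GMPs, and on 1 of 4 arrays of KO CMPs against 3 of 4 of control CMPs, so the sex of the donor or recipient cells moves with both effects, in opposite directions. Of the 739 chromosome X genes tested 21 (2.84%) were called for the difference, against 2.8% of all genes, and of 9 chromosome Y genes 1 was called. The part of sex in the difference was not tested beyond the fit with high Xist as a covariate given below. The median absolute residual was 0.11 in KO secondary and 0.212 and 0.133 in control primary and secondary L-GMPs, against 0.086 and 0.088 in KO and control CMPs. No batch was used here, and CMPs and L-GMPs come from different experiments, so a level compared between them cannot be told apart from an array batch. Each knockout effect compares cells of 1 kind, and the effects share no array. Of the markers used to sort the cells, Kit spanned 8.24 to 8.38 in KO L-GMPs and 6.33 to 9.03 in control L-GMPs, against 9.45 to 9.78 in KO CMPs and 9.12 to 9.37 in control CMPs. Fcgr3, which encodes an Fc receptor of the gate, spanned 9.51 to 9.66 in KO L-GMPs and 9.42 to 10.28 in control L-GMPs, and was lower in the CMPs at 7.24 to 8.64 in KO and 7.26 to 8.28 in control cells.

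Cebpa itself was low in the knockout cells of both experiments. It read 5.15, 4.90 and 4.33 in KO L-GMPs, against 7.96, 7.69, 7.36 and 7.36 in control L-GMPs. It read 5.51, 5.19, 5.55 and 4.99 in KO CMPs, against 7.64, 7.50, 7.83 and 7.19 in control CMPs. No KO array reached a control array in either experiment, and the effects were -2.71 in L-GMPs and -2.23 in CMPs. Their difference of -0.49 ± 0.26 (SE) was not called (limma adjusted p = 0.366, 95% interval -1.03 to 0.06). Loss of Cebpa transcript was thus read in both experiments, and a difference in its size was not detectable with these arrays.

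The knockout effects on other genes differed widely between leukaemia and CMPs. The difference was called for 558 genes. The leukaemia effect was the higher one for 402 of them (2.02% of genes tested) and the lower one for 156 (0.782%), and 288 and 72 of these differed by at least 2-fold. An unadjusted p below 0.05 was reached by 3249 genes. Across all 19937 genes the effects in L-GMPs and CMPs had a Pearson correlation of 0.0337 and a Spearman correlation of 0.0609, given as a description since genes are not independent replicates. The count depended on the fit: it was 141 (140 of them among the 558) when the 3 KO L-GMP arrays were averaged to 1 sample, which is then assumed to vary like the other groups, 245 (211 shared) with high Xist as a covariate, and 1603 without the control L-GMP array of primary recipient 1. Of 51 named genes called, 20 were still called with the knockout leukaemia as 1 sample: Elane, Ctsg, Prss57, F13a1, Ly86, Hpse, Hp, Clec5a, Cxcr2, Il6ra, Pcdh7, Ak4, Egln3, Hoxb5, Fnbp1l, Ctla2a, Phlda1, Egr1, Hmga2 and Slfn4. The other 31 were not, and 28 of the 51 were called with high Xist as a covariate, among them all of these 20 except Phlda1 and Slfn4.

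**Figure D1:**
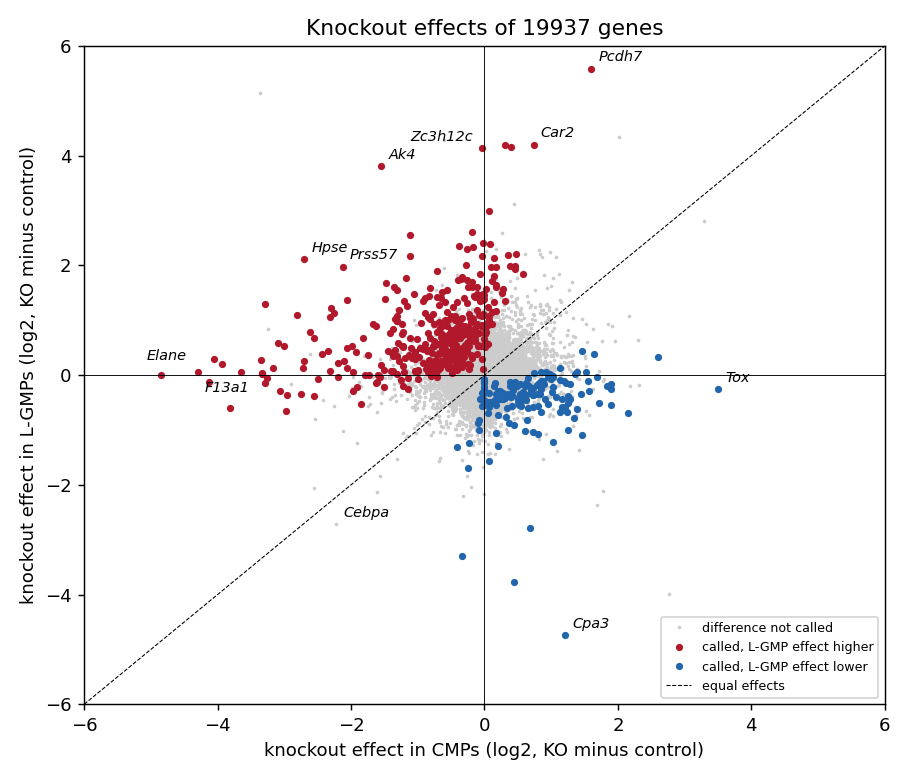
The knockout effect in L-GMPs (y axis, log2) is plotted against the knockout effect in CMPs (x axis, log2) for 19937 genes, with genes called for the difference in red (402, leukaemia effect higher) or blue (156, leukaemia effect lower) and equal effects on the dashed line. Cebpa lies near that line, while Elane and F13a1 lie near 0 on the y axis and beyond -4 on the x axis.

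Most called genes had a called effect in only 1 of the experiments, which does not show that the other effect was absent. The CMP effect alone was called in 173 genes (31%) that were lower in KO CMPs, with medians of 0.23 for the L-GMP effect and -1.13 for the CMP effect, and in 80 (14.3%) that were higher in KO CMPs, with medians of -0.24 and 0.99. The L-GMP effect alone was called in 149 genes (26.7%) higher in KO L-GMPs, with medians of 1.09 in L-GMPs and -0.15 in CMPs, and in 53 (9.5%) lower there, with medians of -0.53 and 0.01. Both effects were called with opposite sign in 27 genes and with the same sign in 1, Pcdh7. Neither effect was called in the remaining 75. The background for single effects was 419 genes higher (2.1%) and 232 lower (1.16%) in KO L-GMPs, and 453 higher (2.27%) and 526 lower (2.64%) in KO CMPs.

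The genes called in CMPs were mostly not called in the leukaemia. Of the 526 genes lower in KO CMPs, 21 (3.99%) were also lower and 22 (4.18%) were higher in KO L-GMPs, with a median L-GMP effect of 0.01. Among the 168 of them that fell at least 2-fold in KO CMPs, 5 were lower and 13 higher in KO L-GMPs. Of the 453 genes that rose in KO CMPs, 48 (10.6%) were also higher in KO L-GMPs and 5 (1.1%) were lower, with a median of 0.15. Over all genes 2.1% were higher and 1.16% lower in KO L-GMPs, so calls in the same direction as in CMPs were above their background for falls and for rises, as were opposite calls among the genes that fell. The shares were not tested against each other.

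The primary granule genes, which encode the proteases and peroxidase that granulocytic progenitors pack into azurophil granules, gave some of the largest differences. The leukaemia effect was higher for 5 of 11 measured members and lower for 0, with a median difference of 1.93, against 0.00 over all genes. In KO CMPs 5 members fell, and the list median was -1.02 there and 0.27 in L-GMPs. The list's mean per array spanned 9.63 to 9.98 in KO L-GMPs and 9.04 to 10.0 in control L-GMPs, and 7.30 to 7.93 in KO CMPs and 9.02 to 9.67 in control CMPs. Over all genes 2.02% were called higher and 0.782% lower for the difference, which is the background for the counts of this and every later list. The lists were chosen with earlier results known and hold the given markers. Elane is in this list, F13a1 and Hpse in the monocyte list, Hpse also in the adhesion list, Ak4 in the glycolysis list and Tox in the HMG-box list.

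Elane encodes neutrophil elastase. It read 11.63, 10.97 and 11.57 in KO L-GMPs, against 12.32, 10.87, 11.47 and 11.10 in control L-GMPs. It read 7.01, 4.44, 5.90 and 4.99 in KO CMPs, against 10.45, 9.69, 10.67 and 10.93 in control CMPs. KO and control arrays overlapped in the leukaemia and lay apart in CMPs, where every KO array was below every control array. The effects were 0.01 ± 0.52 (SE) and -4.85 ± 0.46 (SE), and the difference of 4.86 ± 0.69 (SE) had a limma adjusted p of 0.00109.

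Ctsg, which encodes cathepsin G, followed the same order with 11.91, 11.92 and 11.94 in KO L-GMPs, against 12.09, 11.54, 11.67 and 11.58 in control L-GMPs. In KO CMPs it read 8.47, 7.08, 7.96 and 6.38, against 11.43, 11.15, 11.40 and 11.62 in control CMPs. The KO CMP arrays differed among themselves by about 2 units and stayed below all other groups. The difference was 4.13 ± 0.57 (SE, limma adjusted p = 0.000944). Prtn3, the gene of proteinase 3 and a close neighbour of Elane, was added to the named genes after its values were seen. It spanned 10.96 to 11.52 in KO L-GMPs and 10.33 to 11.88 in control L-GMPs, and 6.93 to 8.26 in KO CMPs and 10.32 to 11.17 in control CMPs, with a difference of 3.62.

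Prss57, another azurophil granule serine protease, moved in opposite directions. It read 9.32, 9.41 and 9.40 in KO L-GMPs, against 8.46, 6.56, 7.79 and 6.72 in control L-GMPs. In KO CMPs it read 5.78, 5.24, 5.59 and 5.27, against 7.34, 6.77, 7.86 and 8.40 in control CMPs. It was higher than every control in the knockout leukaemia and lower than every control in KO CMPs, with effects of 1.98 ± 0.44 (SE) and -2.12 ± 0.40 (SE) and a difference of 4.10 (limma adjusted p = 0.00125). Ms4a3, a membrane protein gene typical of granulocyte-macrophage progenitors, had a difference of 4.58 ± 0.81 (SE). Its KO L-GMP arrays spanned 10.25 to 11.14 and overlapped the control span of 8.07 to 10.57, and it was no longer called with the knockout leukaemia as 1 sample. Mpo, the myeloperoxidase gene, was not called. It spanned 12.14 to 12.29 in KO L-GMPs and 9.74 to 12.56 in control L-GMPs, and 11.37 to 11.57 in KO CMPs and 12.39 to 12.59 in control CMPs.

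**Figure D2:**
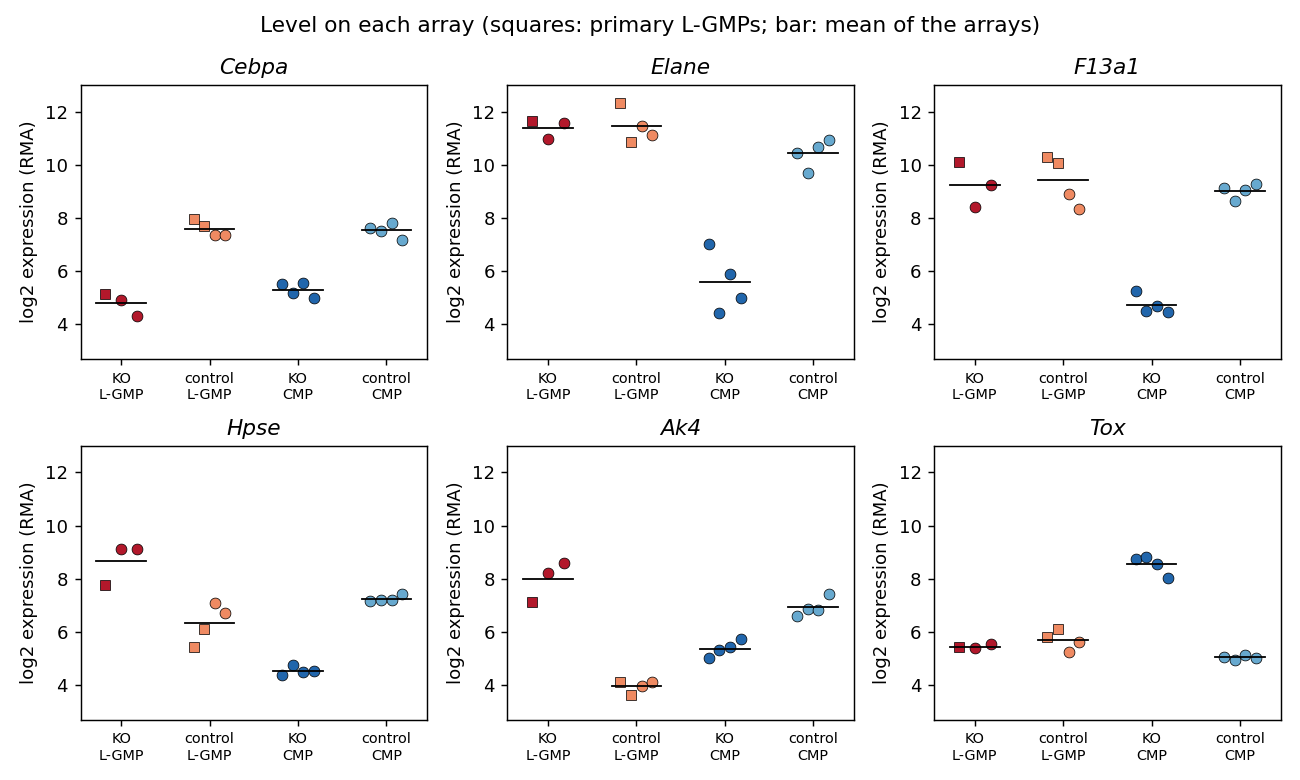
Level of Cebpa, Elane, F13a1, Hpse, Ak4 and Tox on each array (y axis, log2 expression) in KO L-GMPs, control L-GMPs, KO CMPs and control CMPs, with primary L-GMPs as squares and the mean of the arrays as a bar. Cebpa is lower in the knockout cells of both experiments, whereas Elane and F13a1 are lower only on the KO CMP arrays and Tox is higher only there.

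The promoters of the 3 granule protease genes that moved together are shown because of that shared pattern. Each run is the 250 bases before the gene's start in RefSeq's GRCm38.p6 annotation, 5′ to 3′ on the gene's own strand. They lie at chr10:79886062-79886311 (plus strand) for Elane, chr10:79879417-79879666 (plus strand) for Prtn3 and chr14:56102575-56102824 (minus strand) for Ctsg. Capitals mark AGGAAGT, a purine-rich ETS-type core that was picked after these promoters were read and was searched on both strands.
Elane: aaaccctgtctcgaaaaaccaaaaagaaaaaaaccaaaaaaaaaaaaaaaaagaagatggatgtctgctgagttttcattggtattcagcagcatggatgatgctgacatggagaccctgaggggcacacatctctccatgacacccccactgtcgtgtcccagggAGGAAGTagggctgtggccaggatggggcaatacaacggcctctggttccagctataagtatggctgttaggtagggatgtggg
Prtn3: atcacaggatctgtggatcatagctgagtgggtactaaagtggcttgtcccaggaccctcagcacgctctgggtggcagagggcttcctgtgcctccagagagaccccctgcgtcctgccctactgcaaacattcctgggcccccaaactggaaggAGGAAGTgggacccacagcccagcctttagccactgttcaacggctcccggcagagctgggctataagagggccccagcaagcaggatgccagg
Ctsg: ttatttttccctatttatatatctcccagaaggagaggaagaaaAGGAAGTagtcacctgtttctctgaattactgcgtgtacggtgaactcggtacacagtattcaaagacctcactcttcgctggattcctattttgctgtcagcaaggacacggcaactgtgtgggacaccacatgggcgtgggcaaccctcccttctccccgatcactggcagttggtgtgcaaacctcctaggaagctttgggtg
The AGGAAGT run starts 84 bases before the start of Elane, 94 before that of Prtn3 and 206 before that of Ctsg. It occurs in 7.33% of the 15613 promoters of genes tested and in 21 of 142 (14.8%) of those of genes whose CMP effect alone was called and lower. Those 142 include the 3 promoters from which the letters were picked, and without them the count was 18 of 139 (12.9%). TTGCNNAA, a spelling of the C/EBP motif, has no match in these 3 windows and does not overlap AGGAAGT in them. It occurs in 8.65% of all promoters tested, in 6 of those 142 (4.23%), and in 14 of 115 (12.2%) promoters of genes whose L-GMP effect alone was called and higher. These are descriptions of letters in a short window.

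Monocyte and macrophage genes showed the pattern most broadly. The difference was called and positive in 9 of 21 measured members and called and negative in 0, against 2.02% and 0.782% of all genes. It was above 0 in all 21, with a median of 1.57. In KO CMPs 13 of the 21 fell and the median effect was -1.72, whereas in KO L-GMPs 2 rose, 1 fell and the median was 0.12. The list's mean was 7.33 to 7.40 in KO L-GMPs and 6.80 to 7.40 in control L-GMPs, and 5.04 to 5.39 in KO CMPs and 6.81 to 7.19 in control CMPs. The KO CMP arrays stood below the other groups, and the groups overlapped in the leukaemia.

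F13a1 encodes the A subunit of coagulation factor XIII, a product of monocytes. It read 10.09, 8.42 and 9.24 in KO L-GMPs, against 10.30, 10.08, 8.92 and 8.35 in control L-GMPs. In KO CMPs it read 5.24, 4.51, 4.69 and 4.46, against 9.14, 8.64, 9.06 and 9.26 in control CMPs. The leukaemias of both genotypes were higher in primary than in secondary recipients, and their genotypes overlapped. The effects were 0.05 ± 0.30 (SE) in L-GMPs and -4.30 ± 0.27 (SE) in CMPs, with a difference of 4.34 (limma adjusted p = 2.85e-05). Ly86, which encodes the MD-1 partner of a Toll-like receptor homologue, read 10.38, 10.54 and 10.34 in KO L-GMPs, against 9.45, 10.35, 10.37 and 10.26 in control L-GMPs. In KO CMPs it was at 6.01, 4.83, 5.65 and 4.52, against 9.25, 9.32, 9.07 and 9.58 in control CMPs, and the difference was 4.35 ± 0.53 (SE).

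Hpse encodes heparanase, which cuts heparan sulfate in the matrix, and was the clearest gene with opposite effects. It read 7.77, 9.13 and 9.10 in KO L-GMPs, against 5.43, 6.12, 7.07 and 6.70 in control L-GMPs. In KO CMPs it read 4.37, 4.77, 4.49 and 4.52, against 7.16, 7.19, 7.20 and 7.43 in control CMPs. Every KO leukaemia array was above every control one, and every KO CMP array was below every control one. The effects of 2.11 and -2.71 gave a difference of 4.82 ± 0.29 (SE, limma adjusted p = 2.47e-07), which stayed called in all 15 leave-one-out fits and under all 15 other alternatives. Hp, which encodes haptoglobin, differed by 4.00 ± 0.44 (SE): KO L-GMPs spanned 10.64 to 11.19 and control L-GMPs 10.58 to 11.43, and KO CMPs spanned 3.87 to 5.37 and control CMPs 8.18 to 9.25.

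Ccr2, the receptor that draws monocytes out of the marrow, differed by 3.90 ± 0.76 (SE). It read 7.02, 6.68 and 6.07 in KO L-GMPs, against 6.20, 5.98, 4.75 and 5.49 in control L-GMPs, and 5.97, 5.55, 5.44 and 5.04 in KO CMPs, against 8.31, 8.40, 8.24 and 8.28 in control CMPs. All L-GMP arrays of both genotypes therefore lay below the control CMPs, unlike those of F13a1 or Ly86. Itgam, the gene of the CD11b integrin chain, entered the difference through the leukaemia, with 8.47, 9.18 and 8.90 in KO L-GMPs, against 8.40, 7.36, 6.50 and 7.07 in control L-GMPs, and 5.87 to 6.71 in KO CMPs and 6.33 to 6.54 in control CMPs. The Ccr2 difference was no longer called with the knockout leukaemia as 1 sample, with high Xist as a covariate or in primary L-GMPs alone. That of Itgam was lost in 2 of 15 leave-one-out fits, with the knockout leukaemia as 1 sample, with equal weight per array and in primary L-GMPs alone.

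Among the receptors and regulators of granulocyte and monocyte development, 4 of 18 measured genes were called with the leukaemia effect higher and 0 with it lower. The shares over all genes were 2.02% and 0.782%, and the list median was 0.67. The 4 were Irf8, Il6ra, Csf3r and Cebpe. Cebpe is also a member of the C/EBP list and of the later granule and neutrophil list below. Irf8, a transcription factor of monocyte and dendritic cell fate, read 6.42, 6.96 and 6.70 in KO L-GMPs, against 6.75, 8.53, 7.17 and 6.69 in control L-GMPs. In KO CMPs it read 5.83, 5.44, 5.48 and 5.41, against 8.31, 8.57, 8.64 and 8.55 in control CMPs. Of its 7 L-GMP arrays 6 lay between the CMP groups, and its difference was 2.32 ± 0.41 (SE, limma adjusted p = 0.00471). Il6ra, the interleukin-6 receptor chain, was at 7.22 to 7.44 in KO L-GMPs and 7.20 to 7.69 in control L-GMPs, and at 5.11 to 5.90 in KO CMPs and 7.37 to 7.53 in control CMPs (difference 1.69 ± 0.29, SE). Csf3r, the G-CSF receptor gene, differed by 1.12 ± 0.23 (SE), with 7.23 to 7.39 in KO L-GMPs and 6.53 to 7.67 in control L-GMPs, and 6.25 to 6.55 in KO CMPs and 7.34 to 7.56 in control CMPs. For both receptors the leukaemia arrays of either genotype overlapped the control CMP arrays, and for Csf3r the KO L-GMP arrays lay below their mean of 7.46. Irf8 and Csf3r were lost with the knockout leukaemia as 1 sample and with high Xist as a covariate. In primary L-GMPs alone Irf8, Il6ra and Csf3r were lost, and Csf3r was also lost with equal weight per array.

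Of the C/EBP family 1 of 6 measured members was called higher and 1 lower. Cebpe, a factor of later granulocyte maturation, read 8.15, 7.88 and 7.99 in KO L-GMPs, against 7.77, 8.08, 7.32 and 7.21 in control L-GMPs. It read 5.50, 5.44, 5.65 and 5.47 in KO CMPs, against 6.13, 5.92, 6.32 and 7.06 in control CMPs, with a difference of 1.29 ± 0.29 (SE, limma adjusted p = 0.0244) that was called in 11 of 15 leave-one-out fits. The Cebpe difference was lost with array weights, with the knockout leukaemia as 1 sample and in primary L-GMPs alone. Ddit3, which encodes the stress-induced member CHOP, went the other way with a difference of -1.13 ± 0.23 (SE). It spanned 7.59 to 8.18 in KO L-GMPs and 8.09 to 8.46 in control L-GMPs, and 8.32 to 8.78 in KO CMPs and 7.63 to 8.16 in control CMPs.

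Of the later granule and neutrophil genes 3 of 18 measured members were called higher, against 2.02% of all genes, and 0 lower, with 9 differences above and 9 below 0 and a median of 0.00. The 3 were Cxcr2, Padi4 and Cebpe, the last of which is counted in the lists above as well. The list's mean was 5.84 to 6.74 in KO L-GMPs and 5.73 to 6.98 in control L-GMPs, which overlapped, and 4.62 to 4.82 in KO CMPs and 5.18 to 5.81 in control CMPs, which did not. Cxcr2, a chemokine receptor of neutrophils, is a case in which both leukaemia genotypes were low. It read 5.05, 4.56 and 4.38 in KO L-GMPs, against 5.07, 4.64, 4.28 and 4.90 in control L-GMPs. It read 4.55, 4.10, 4.07 and 4.60 in KO CMPs, against 7.80, 7.62, 7.86 and 7.37 in control CMPs. The leukaemia arrays overlapped the KO CMP arrays and lay below every control CMP array, and the difference of 3.37 ± 0.27 (SE, limma adjusted p = 6.32e-06) is the CMP effect of -3.33 with its sign turned. Padi4, a peptidylarginine deiminase of neutrophils, was called through the leukaemia, with 6.94 to 7.63 in KO L-GMPs and 4.93 to 5.43 in control L-GMPs, against 5.61 to 5.82 in KO CMPs and 4.95 to 5.64 in control CMPs.

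The 173 genes called through a fall in KO CMPs were sorted by their leukaemia levels relative to the midpoint of the KO and control CMP means. In 121 of them both L-GMP means lay on the control CMP side, as for Elane, and in 39 both lay on the KO CMP side, as for Cxcr2. In 11 only the KO L-GMP mean and in 2 only the control L-GMP mean lay on the control CMP side. For 25 the control L-GMP mean was below the KO CMP mean. Of the 80 genes called through a rise in KO CMPs, 68 had both L-GMP means on the control CMP side and 6 both on the KO CMP side.

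**Figure D3:**
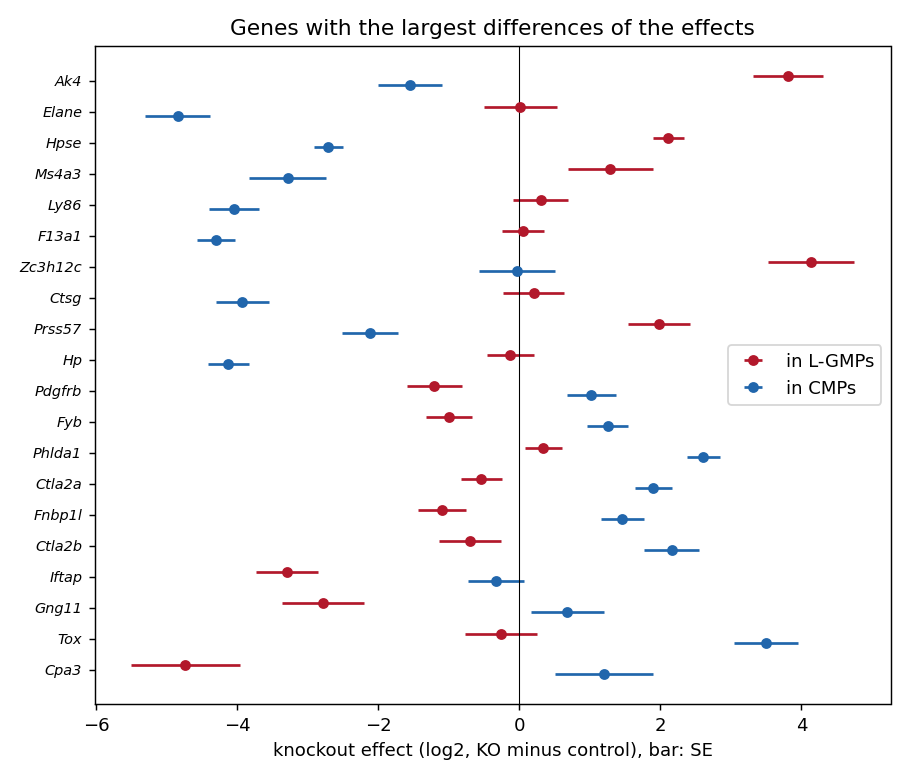
Knockout effects in L-GMPs (red) and CMPs (blue) of the named genes with the largest differences (10 positive and 10 negative, x axis log2, bars SE), ordered by the difference. Elane, Ly86, F13a1, Ctsg and Hp have L-GMP effects near 0 and CMP effects below -3, while Hpse and Prss57 have effects on opposite sides of 0.

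Tox was the strongest of the genes that rose in KO CMPs and had no called effect in the leukaemia. It encodes a nuclear HMG-box protein known from T cell development. It read 5.42, 5.38 and 5.54 in KO L-GMPs, against 5.81, 6.12, 5.26 and 5.62 in control L-GMPs. It read 8.76, 8.83, 8.57 and 8.01 in KO CMPs, against 5.05, 4.94, 5.15 and 5.04 in control CMPs. All KO CMP arrays lay above every other array, and the leukaemia arrays overlapped. The difference was -3.76 ± 0.68 (SE, limma adjusted p = 0.00587), called in all 15 leave-one-out fits but not with the knockout leukaemia as 1 sample or with high Xist as a covariate.

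Other HMG-box and architectural genes moved less. Of 9 measured members of that list 3 were called with the leukaemia effect lower and 0 with it higher, and the median was -0.32. Hmga2, an architectural chromatin protein gene, read 5.65, 5.35 and 5.03 in KO L-GMPs, against 5.86, 6.61, 5.87 and 6.02 in control L-GMPs. It read 6.88, 7.14, 7.22 and 7.18 in KO CMPs, against 5.67, 5.95, 6.17 and 5.70 in control CMPs. Its KO arrays were the lower ones in the leukaemia and the higher ones in CMPs, and the difference of -1.90 ± 0.30 (SE, limma adjusted p = 0.00216) stayed called under all 30 alternatives. Hmgb3 had a difference of -0.99 ± 0.24 (SE) and was called in only 4 of 15 leave-one-out fits.

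Immediate early genes, which cells switch on within minutes of a stimulus, had the lowest list median at -1.03. The difference was called and negative in 4 of 19 measured members (Phlda1, Egr1, Btg2 and Jun) and called and positive in 0. In KO CMPs 8 members rose and the median effect was 0.91, whereas in KO L-GMPs 1 rose and the median was -0.12. Phlda1, a pleckstrin homology-like protein gene, read 6.85, 5.40 and 5.61 in KO L-GMPs, against 5.63, 5.55, 6.26 and 5.94 in control L-GMPs. It read 8.96, 9.13, 9.29 and 8.72 in KO CMPs, against 6.43, 6.0, 6.46 and 6.78 in control CMPs, and the difference was -2.27 ± 0.35 (SE, limma adjusted p = 0.00195). The zinc finger factor gene Egr1 read 8.15, 7.47 and 7.11 in KO L-GMPs, against 8.38, 8.57, 8.92 and 8.18 in control L-GMPs, and 11.59, 11.28, 11.45 and 11.28 in KO CMPs, against 10.22, 9.50, 10.30 and 10.21 in control CMPs. Both CMP groups lay above all leukaemia arrays for Egr1, and its difference was -2.14 ± 0.32 (SE). Jun was called in only 6 of 15 leave-one-out fits, and Btg2 and Jun were lost with the knockout leukaemia as 1 sample. Phlda1, Btg2 and Jun were lost with high Xist as a covariate, and all 4 were lost in primary L-GMPs alone.

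The immediate early list also varied within the genotypes. Its mean per array was 8.17, 7.69 and 7.66 in KO L-GMPs, against 7.62, 7.79, 8.49 and 8.14 in control L-GMPs. It was 9.10, 8.95, 9.06 and 8.66 in KO CMPs, against 7.90, 7.90, 8.02 and 8.60 in control CMPs. The CMP arrays with the opposite Xist state, KO 4 and control 4, lay closest to the other genotype. The list median was -0.43 with high Xist as a covariate, -1.53 in secondary L-GMPs alone and -0.19 in primary L-GMPs alone. The part that sex had in this list was not tested beyond that covariate.

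Other genes with strongly negative differences were also higher in KO CMPs. Ctla2a and Ctla2b, which encode cysteine protease inhibitors, differed by -2.43 ± 0.39 (SE) and -2.86 ± 0.58 (SE). Ctla2a was at 10.61 to 10.83 in KO CMPs and 8.67 to 8.98 in control CMPs, while in L-GMPs it was at 3.15 to 3.20 in KO and 3.00 to 5.28 in control arrays, 2 of which were at the lowest listed value. A fall from that level would not be detectable. Fnbp1l, a membrane-curving actin regulator gene, read 8.45, 8.82 and 7.72 in KO L-GMPs, against 8.92, 10.20, 9.19 and 9.51 in control L-GMPs, and 8.62 to 8.99 in KO CMPs and 6.93 to 7.66 in control CMPs (difference -2.55 ± 0.46, SE). Fyb, an adaptor gene of haematopoietic cells, differed by -2.25 ± 0.43 (SE) with overlapping leukaemia arrays. Lax1, a lymphocyte adaptor gene, differed by -2.06 ± 0.38 (SE), with 5.70 to 5.80 in KO L-GMPs and 5.61 to 6.35 in control L-GMPs, and 6.52 to 7.11 in KO CMPs and 4.85 to 4.95 in control CMPs. Pdgfrb, a platelet-derived growth factor receptor gene, had a difference of -2.23 ± 0.52 (SE) with neither effect called alone and was called in 5 of 15 leave-one-out fits.

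A further set of genes had a called leukaemia effect. Ak4, which encodes a mitochondrial adenylate kinase, had the largest positive difference among the named genes called, on the probe set used. It read 7.12, 8.21 and 8.61 in KO L-GMPs, against 4.13, 3.62, 3.96 and 4.12 in control L-GMPs. It read 5.01, 5.34, 5.42 and 5.74 in KO CMPs, against 6.61, 6.85, 6.81 and 7.41 in control CMPs. The groups lay apart in both experiments in opposite directions, with effects of 3.81 ± 0.50 (SE) in L-GMPs and -1.55 ± 0.45 (SE) in CMPs, of which only the leukaemia effect was called. The difference was 5.35 ± 0.67 (SE, limma adjusted p = 0.000413) and stayed called under all 30 alternatives. Ak4 has 2 probe sets, of which the brighter was used. With the mean of both the difference was 4.14, below that of Elane at 4.86, so its size and rank depend on that choice.

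Pcdh7, a protocadherin gene, was the single gene called for the difference that had both effects called in the same direction. Without that limit, 21 genes were called lower and 48 called higher in the knockout cells of both experiments. It read 10.07, 10.04 and 10.20 in KO L-GMPs, against 4.36, 4.95, 4.36 and 4.34 in control L-GMPs. It read 6.35, 6.80, 6.79 and 6.96 in KO CMPs, against 4.81, 5.42, 5.31 and 4.97 in control CMPs. It was higher in the knockout cells of both experiments, by 5.59 ± 0.19 (SE) in the leukaemia and 1.60 ± 0.17 (SE) in CMPs, and the difference of 3.99 ± 0.26 (SE) had a limma adjusted p of 5.06e-07. The KO L-GMP arrays are 1 leukaemia, and whether another knockout leukaemia would share this level was not tested.

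Zc3h12c, which encodes a Regnase-family RNA-binding protein, read 10.25, 10.37 and 10.13 in KO L-GMPs, against 8.32, 4.58, 5.05 and 6.50 in control L-GMPs. It was at 6.28 to 6.85 in KO CMPs and 6.18 to 6.80 in control CMPs, which overlapped. The control leukaemias spread over nearly 4 units, all below the knockout leukaemia, and the difference was 4.17 ± 0.82 (SE, limma adjusted p = 0.0103). Xlr, an X-linked lymphocyte-regulated gene, read 8.69, 9.07 and 9.27 in KO L-GMPs, against 7.56, 5.33, 3.00 and 3.00 in control L-GMPs, the last 2 at the lowest listed value. In CMPs it was at 3.45 to 5.13 in KO and 3.32 to 4.71 in control arrays, and its difference was 3.89 ± 0.77 (SE). Both Zc3h12c and Xlr were lost with the knockout leukaemia as 1 sample and in primary L-GMPs alone. Xlr was also lost with high Xist as a covariate and with equal weight per array, and its difference was 5.86 in secondary and 1.93 in primary L-GMPs.

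Car2, the carbonic anhydrase 2 gene, read 9.88, 9.91 and 9.99 in KO L-GMPs, against 5.13, 6.13, 5.74 and 5.84 in control L-GMPs, with 9.67, 10.04, 9.82 and 9.72 in KO CMPs and 8.81, 9.62, 9.30 and 8.57 in control CMPs. The knockout leukaemia lay within the span of the KO CMPs, and the control leukaemias lay more than 2 units below every other array. Its difference was 3.47 ± 0.63 (SE, limma adjusted p = 0.00592), the only one called among 17 measured erythroid genes, whose median was 0.21. The list's mean per array was 5.56 to 5.66 in KO L-GMPs and 5.34 to 5.75 in control L-GMPs, and 6.89 to 7.49 in KO CMPs and 6.98 to 7.80 in control CMPs, which overlapped in both experiments. The Car2 difference was lost with the knockout leukaemia as 1 sample, with high Xist as a covariate and in primary L-GMPs alone.

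Stem cell genes were called in 2 of 17 cases, both with the leukaemia effect higher, against 2.02% of all genes. Their median was -0.07. Hoxb5, a homeobox gene of long-term stem cells, read 6.11, 5.95 and 6.56 in KO L-GMPs, against 3.34, 4.39, 3.81 and 4.00 in control L-GMPs. It was at 3.92 to 4.22 in KO CMPs and 3.87 to 4.55 in control CMPs. Its effect was called in the leukaemia and not in CMPs, and it differed by 2.56 ± 0.37 (SE, limma adjusted p = 0.00122). Cd34 differed by 1.17 ± 0.25 (SE), with 9.71 to 10.11 in KO L-GMPs and 8.71 to 9.97 in control L-GMPs, and 9.98 to 10.35 in KO CMPs and 10.62 to 10.78 in control CMPs. It is also a marker of the CMP gate. Its difference was lost with the knockout leukaemia as 1 sample, with high Xist as a covariate and in primary L-GMPs alone. Of 11 measured genes used in sorting, 2 were called higher (Cd34 and Itgam) and 0 lower, with a median of 0.08.

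Genes bound or raised by MLL fusion proteins gave 0 calls in either direction among 16 measured members by limma, with a median of 0.27. Mecom, which encodes the stem cell factor EVI1, came closest. It read 8.14, 8.76 and 9.60 in KO L-GMPs, against 5.36, 4.27, 3.93 and 3.94 in control L-GMPs, and 4.13 to 4.29 in KO CMPs and 4.67 to 5.11 in control CMPs. The leukaemia groups lay nearly 3 units apart, and the difference of 4.90 ± 1.32 (SE) missed the threshold (limma adjusted p = 0.0598), though it was called under 9 of 15 alternatives and in 2 of 15 leave-one-out fits. Hoxa7 differed by 0.70 ± 0.29 (SE) and was not called.

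Some genes fell in the knockout leukaemia and had no called effect in CMPs. Cpa3, which encodes a carboxypeptidase of mast cells, had the most negative difference of the named genes. It read 4.75, 5.75 and 4.65 in KO L-GMPs, against 10.61, 10.31, 9.30 and 8.65 in control L-GMPs. It read 11.03, 10.95, 10.80 and 10.79 in KO CMPs, against 10.10, 9.25, 9.71 and 9.70 in control CMPs. All KO L-GMP arrays lay below all others and the KO CMP arrays above all others, with effects of -4.74 ± 0.77 (SE) and 1.20 ± 0.69 (SE) and a difference of -5.95 ± 1.04 (SE, limma adjusted p = 0.00455). The other mast cell, basophil and eosinophil genes did not follow. Of 18 measured members 1 was called higher, Prg2, and 1 lower, Cpa3, with a median of 0.26. Above 0 were 13 differences and below 0 were 5. Mcpt8, named after its values were seen, differed by 4.07 without a call, with a CMP effect of -3.24. The list's mean was 5.02 to 5.10 in KO L-GMPs and 5.00 to 5.61 in control L-GMPs. It lay apart in CMPs, at 5.17 to 5.60 in KO and 5.82 to 6.35 in control arrays. The part of these cells was not tested. Prg2, an eosinophil granule protein gene, was called in only 2 of 15 leave-one-out fits. Cpa3 was lost with the knockout leukaemia as 1 sample and with high Xist as a covariate.

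Gng11, a G protein gamma subunit gene, read 4.68, 4.83 and 4.90 in KO L-GMPs, against 7.99, 6.11, 8.20 and 7.94 in control L-GMPs, and 6.96 to 7.56 in KO CMPs and 6.49 to 6.82 in control CMPs (difference -3.46 ± 0.77, SE). Iftap, named for intraflagellar transport, was at 3.75 to 4.26 in KO L-GMPs and 6.48 to 7.88 in control L-GMPs, and at 6.72 to 7.23 in KO CMPs and 7.30 to 7.47 in control CMPs (difference -2.97 ± 0.59, SE). Both were lost with the knockout leukaemia as 1 sample, with high Xist as a covariate and in primary L-GMPs alone. Iftap has 2 probe sets, and with their mean its difference was -2.08. Slfn4, an interferon-induced Schlafen gene, read 5.55, 6.33 and 6.96 in KO L-GMPs, against 7.80, 7.56, 7.49 and 8.29 in control L-GMPs. It was at 4.23 to 4.52 in KO CMPs and 4.48 to 4.84 in control CMPs, and the difference was -1.43 ± 0.25 (SE, limma adjusted p = 0.00454), the only one called among 19 measured interferon response genes, whose median was -0.20.

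Genes whose effects were called in opposite directions numbered 27. The leukaemia effect was the positive one in 22 and the negative one in 5. Besides Hpse and Prss57 they included Clec5a, a myeloid lectin receptor gene, which read 5.57, 4.98 and 5.76 in KO L-GMPs, against 4.73, 3.41, 3.88 and 4.34 in control L-GMPs. It read 3.50, 3.33, 3.45 and 3.17 in KO CMPs, against 5.37, 4.79, 5.03 and 6.51 in control CMPs. Its KO arrays were all higher in the leukaemia and all lower in CMPs, with a difference of 3.43 ± 0.48 (SE, limma adjusted p = 0.000968). Egln3, a prolyl hydroxylase gene that responds to hypoxia, read 8.25, 8.53 and 8.15 in KO L-GMPs, against 7.54, 6.56, 6.91 and 6.75 in control L-GMPs, and 6.71, 6.83, 6.72 and 6.58 in KO CMPs, against 7.83, 7.74, 8.19 and 7.90 in control CMPs. The crossing of the genotypes was again complete, and the difference was 2.56 ± 0.33 (SE).

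Of 21 measured glycolysis and hypoxia genes 3 (Ak4, Egln3 and Pfkp) were called with the leukaemia effect higher and 0 with it lower. The shares over all genes were 2.02% and 0.782%, and the list median was 0.28. The list's mean, which includes Ak4, was 7.63 to 7.83 in KO L-GMPs and 7.28 to 7.50 in control L-GMPs. In CMPs it was 7.36 to 7.46 in KO and 7.62 to 7.77 in control arrays, so it lay apart in both experiments, in opposite directions. Pfkp, the platelet phosphofructokinase gene, was at 7.57 to 7.95 in KO L-GMPs and 6.47 to 7.55 in control L-GMPs, and at 5.88 to 6.08 in KO CMPs and 6.93 to 7.63 in control CMPs, with a difference of 2.01 ± 0.36 (SE). Of the adhesion and homing genes 5 of 16 were called higher and 0 lower, against 2.02% and 0.782% of all genes, with a median of 0.53. They were Hpse, Pcdh7, Itgam, Alcam and Cd93, of which Hpse and Itgam are also monocyte list members. Alcam, an immunoglobulin-type adhesion molecule gene, was at 6.16 to 7.01 in KO L-GMPs and 5.50 to 5.94 in control L-GMPs, and at 5.03 to 5.28 in KO CMPs and 5.71 to 6.35 in control CMPs (difference 1.49 ± 0.33, SE). The adhesion list's mean was 8.16 to 8.39 in KO L-GMPs and 7.36 to 7.82 in control L-GMPs, and 7.42 to 7.56 in KO CMPs and 7.68 to 7.71 in control CMPs.

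**Figure D4:**
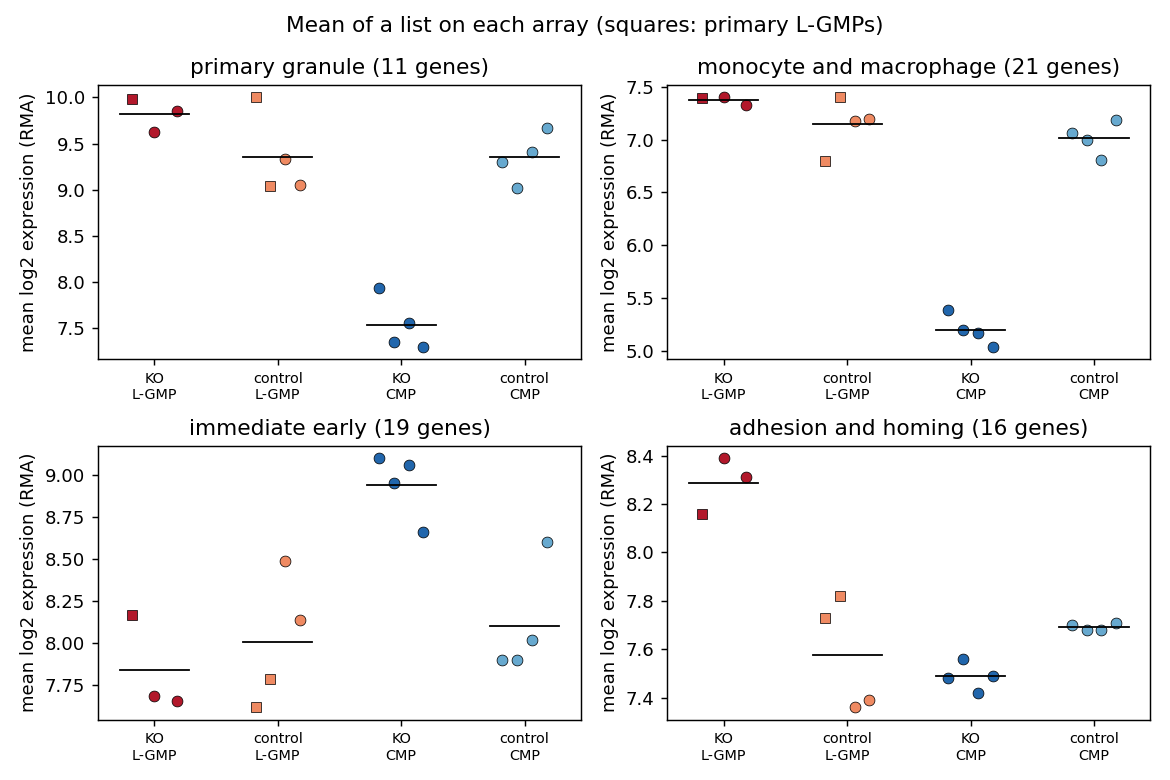
Mean log2 expression (y axis) of 4 gene lists on each array of KO L-GMPs, control L-GMPs, KO CMPs and control CMPs, with primary L-GMPs as squares and bars at the mean of the arrays. Primary granule and monocyte means are low only on KO CMP arrays, immediate early means are highest there, and adhesion means are highest on KO L-GMP arrays.

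Proliferation genes showed small shifts. Of 25 measured cell cycle genes 0 were called in either direction by limma, while 23 differences were above 0 and 2 below. The median was 0.32, and it was -0.04 without the KO L-GMP array of the primary recipient. The list's mean overlapped in the leukaemia, at 7.48 to 8.32 in KO and 7.81 to 8.04 in control L-GMPs. It lay apart in CMPs, at 8.08 to 8.39 in KO and 8.54 to 8.64 in control arrays. Aurkb, a mitotic kinase gene, came closest with 0.75 ± 0.20 (SE, limma adjusted p = 0.0587). Among 11 measured D cyclins and inhibitors of cyclin-dependent kinases 1 was called, Ccnd2, which read 7.95, 8.38 and 8.66 in KO L-GMPs, against 7.02, 7.38, 7.13 and 7.12 in control L-GMPs. It was at 9.18 to 9.25 in KO CMPs and 9.05 to 9.20 in control CMPs, and the difference was 1.01 ± 0.22 (SE). Every KO L-GMP array was above every control L-GMP array and below every CMP array. The Ccnd2 difference was lost with the knockout leukaemia as 1 sample, with high Xist as a covariate and in primary L-GMPs alone. Of 17 measured STAT5 and cytokine response genes 1 was called higher, Ccnd2, and 1 lower, Dusp6, a phosphatase of the ERK pathway, at -1.76 ± 0.40 (SE), and the median was -0.08. Ribosome biogenesis genes gave 0 calls among 18 in either direction by limma, and their median was 0.05.

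Markers of other cells that the gates could hold gave few calls. Over all genes 2.02% were called higher and 0.782% lower, so few calls would be met in any lists of this size. By limma 0 members were called among 12 megakaryocyte genes (median -0.51), 16 dendritic cell genes (median 0.24) and 15 stromal and endothelial genes (median -0.12). Among 17 lymphoid progenitor genes 1 was called lower, Lax1, with a median of -0.13, and among 17 mature lymphocyte genes 1 was called higher, Cd79b, with a median of -0.19. Without a call, 11 of the 12 megakaryocyte and 12 of the 15 stromal differences were below 0, and single members had differences of 2.53 (Flt3), 2.33 (Nkg7), -2.41 (Il7r) and -2.49 (Gzmb), named after their values were seen. The megakaryocyte mean was 5.70 to 5.79 in KO L-GMPs and 5.67 to 6.09 in control L-GMPs, and 6.95 to 7.57 in KO CMPs and 6.69 to 6.98 in control CMPs, so KO and control arrays overlapped in both experiments. The stromal mean spanned 5.07 to 5.10 in KO L-GMPs and 5.16 to 5.41 in control L-GMPs, and 5.15 to 5.20 in KO CMPs and 5.15 to 5.22 in control CMPs. The dendritic cell mean was 5.34 to 5.48 in KO L-GMPs and 5.29 to 5.34 in control L-GMPs, and lay apart in CMPs at 5.36 to 5.56 in KO and 5.66 to 6.12 in control arrays. The mature lymphocyte mean overlapped in the leukaemia, at 5.23 to 5.39 in KO and 5.05 to 5.32 in control L-GMPs, and was the higher one in KO CMPs at 5.51 to 5.78, against 5.22 to 5.40 in control CMPs. The part of these cells in the differences was not tested.

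**Figure D5:**
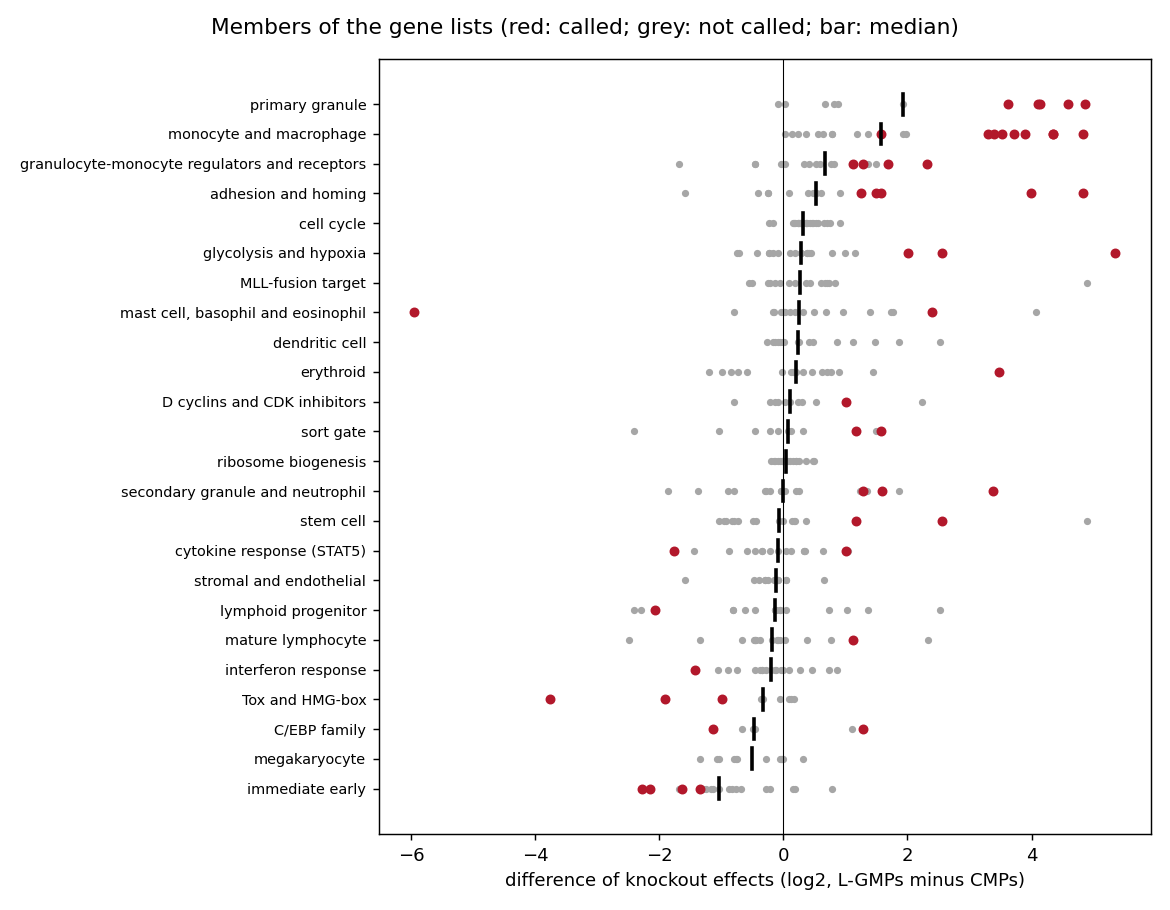
Difference of knockout effects (x axis, log2, L-GMPs minus CMPs) for each measured member of the 24 gene lists (rows), with called genes in red, others in grey and the list median as a bar, ordered by the median. Primary granule (1.93) and monocyte (1.57) lists are at the top and immediate early genes (-1.03) at the bottom.

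A last group had a called difference while neither effect was called alone. It held 57 genes with a higher and 18 with a lower leukaemia effect, and 0 of these 75 were called with the knockout leukaemia as 1 sample. Epha7, an ephrin receptor gene, read 9.75, 9.60 and 9.90 in KO L-GMPs, against 8.54, 5.47, 9.29 and 9.25 in control L-GMPs, and 4.30, 4.27, 4.47 and 4.42 in KO CMPs, against 5.91, 5.73, 5.67 and 5.58 in control CMPs. The difference of 2.97 ± 0.62 (SE, limma adjusted p = 0.0156) rests in part on the control L-GMP array at 5.47: it was 4.10 in primary L-GMPs and 1.84 in secondary ones. Far2, a fatty acyl-CoA reductase gene, had a difference of 2.86 ± 0.68 (SE) and was called in 6 of 15 leave-one-out fits.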

How the data were processed

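Sorted mouse L-GMPs and CMPs were profiled on Affymetrix arrays, 1 sample each. Per the labels, RNA was amplified before labelling. The authors deposited log2 values for 34760 probe sets, and the submitters' processing notes name RMA without a version. RMA removes background, forces a common distribution on all arrays and combines the probes of a set, so changes of dim genes are compressed and levels are comparable within a probe set. The deposited log2 values have a lowest value of 3, held by 2952 to 3379 probe sets per array. The number of arrays limits the precision.

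The platform annotation lists 1 symbol for 21640 probe sets, several for 1321 and none for 11799. Where a gene had more than 1 probe set (954 genes), that with the highest mean was used, leaving 19937 genes. Of the probe sets with 1 symbol, 21553 matched a RefSeq gene. Groups came from the labels, and a model of 9 group means was fitted to all 23 arrays with limma 3.58.1 in R 4.3.3 (trend in the prior variance, Benjamini-Hochberg adjustment over all genes, threshold 0.05). The L-GMP effect gives primary and secondary recipients equal weight. The code was tested on simulated data.

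The text names Cebpa, the given markers (Elane, F13a1, Hpse, Ak4 and Tox), the 10 largest positive and 10 largest negative differences called with equal and with array weights, the 3 largest of each class, and up to 4 called members of each list or, with none called, up to 2 by smallest p. Predicted, small RNA, receptor-segment, olfactory, vomeronasal and Y-linked genes and Xist were left out. Cd93, Prtn3, Mcpt8, Flt3, Nkg7, Il7r and Gzmb fall outside that rule and were chosen after their values were seen. The contrast, the markers and the 24 gene lists (416 entries, 385 measured) were chosen with earlier results of these data known. Alternatives were array and group weights, the 15 arrays alone, other prior variances, a filter on low values, the mean of probe sets, 2 scalings, other L-GMP weights, each transplant generation alone, the knockout leukaemia as 1 sample, high Xist as a covariate, a replicate block and each array left out. Promoters came from RefSeq for GRCm38.p6, and 15613 tested genes were matched to a promoter by symbol.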

Additional observations from a re-analysis of the deposited data

Results flagged for a closer look

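A test of the difference between the leukaemia and CMP effects called 558 genes by limma, as reported above. Among the named genes both effects were called in opposite directions for Hpse (difference 4.82), Prss57 (4.10), Clec5a (3.43) and Egln3 (2.56).

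Within the groups of 4 arrays, 128 tests of the highest and lowest array were made on the named genes. In 12 (9.38%) an array lay farther from the others than Dixon's critical value of 0.829 allows. Chance gives about 1 in 20 for independent values. These tests share arrays and the genes were chosen from these data, so that rate is no more than a rough guide. KO CMP array 1 was the lowest for Iftap (6.72), Padi4 (5.61) and Prg2 (3.97) and the highest for Ctla2b (9.27) and Irf8 (5.83). KO CMP array 4 was the highest for Sparc (5.55). Control CMP array 2 was the lowest for Pdgfrb (6.44) and Egr1 (9.50). Control CMP array 3 was the lowest for Hoxb5 (3.87) and the highest for Wdr12 (8.78). Control CMP array 4 was the highest for Hpse (7.43) and the lowest for Cd34 (10.62).

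Of the 13120 probe sets with several gene symbols or none listed, which enter no count above, 68 were called for the difference of the effects in a limma fit of their own.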

How the results depend on the processing

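The 558 genes called for the difference became 1280 with array weights, 1242 with group weights, 1582 with the 15 arrays alone, 235 in primary L-GMPs alone, 141 with the knockout leukaemia as 1 sample and 245 with high Xist as a covariate, and stayed within 1.5 times under 8 others. Leaving out each array gave 383 to 1603, the highest without control L-GMP primary recipient 1, and 318 genes were called each time. The 651 genes of the L-GMP effect became 2073 with the 15 arrays alone, 132 in primary L-GMPs alone and 83 with the leukaemia as 1 sample, and 409 to 2449 with an array left out, the lowest without KO secondary recipient 2 and the highest without control primary recipient 1. The 979 of the CMP effect became 3762 with array weights, 3873 with group weights, 1855 with the 15 arrays alone and 593 with Xist, and 530 to 1151 with an array left out, the lowest without KO CMP array 1. The cause of these changes was not tested. Same-numbered CMP arrays correlated at 0.077, 0.063, -0.004 and -0.205 in their deviations and same-numbered secondary L-GMPs at -0.128. Not every CMP array correlated best with its own number. With 2 secondary arrays per group the values can only mirror each other, at 0.128 and -0.128. Whether the numbers pair the samples cannot be decided from so few arrays. With the replicate number as a block 1042 genes were called for the difference and 1807 for the CMP effect. The share of calls with the higher leukaemia effect was 72%, and 76.2% with arrays centred on their median and 74.9% with quantile normalization, where the median of all genes moved by 0.01.

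Of the 64 named genes 51 were called, 40 of them in all 15 leave-one-out fits, 20 with the leukaemia as 1 sample and 28 with Xist. Over 1920 values under alternatives 177 lost and 34 gained a call and 0 changed direction as called. The list medians moved by more than the spread in 14 cases: primary granule 2.77 with the low-value filter, 2.65 in secondary and 1.21 in primary L-GMPs; adhesion 1.05 in secondary and 0.21 in primary L-GMPs; immediate early as given above and cell cycle 0.65 in primary L-GMPs and -0.04 without KO primary recipient 1. With Xist the secondary granule median was 0.60 and the interferon one -0.63, and with the low-value filter the stem cell median was -0.47 and the stromal one -0.29. Dim genes limit what can be seen, since 364 genes sat at the lowest value on all 15 arrays.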
